A study of Mus musculus with 98 samples.

Results

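Sox4, Sox5, Sox6, Sox7, Sox9, Sox11, Sox12, Sox13, Sox17 and Sox18 were followed through the stroma of the mouse thymus. These 10 Sox genes were taken by name, as the Sox genes studied apart from the neural crest lineage, from the 18454 genes found in both single-cell count tables and, by symbol, in the bulk table. The single-cell age series held live Ter119-CD45-EpCAM- cells (nonepithelial thymic stroma, NETS) of wild-type (WT) mice, with 1 library at E12.5, 1 at E13.5, and 2 each at E16.5, birth (P0) and 4 weeks (W4). The thymi of E12.5 and E13.5 were pooled over embryos. A newborn data set held Ter119-CD45- cells, epithelium included, fixed in RNA Protect, from 3 libraries labelled Tbx1+/-Crkl+/- (per the methods, a lacZ allele of Tbx1 and a null allele of Crkl) and 3 of WT littermates. Bulk RNA-seq was made from live CD45- cells of WT mice at P0 and 4 weeks, sorted into NETS that were gp38+CD26-, CD31+, gp38+CD26+ or Ly51+gp38-, cortical (cTEC) and medullary (mTEC) thymic epithelium and, at 4 weeks only, mTEChi and mTEClo, with 6 libraries per population and age.

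SOX proteins bind DNA through an HMG box and are grouped by its likeness. The SOXC genes (Sox4, Sox11, Sox12) act in progenitors of many tissues. The SOXD genes (Sox5, Sox6, Sox13) encode long proteins with coiled coils and no activation domain of their own, and Sox5 and Sox6 work with the SOXE protein SOX9 in cartilage. The SOXF genes (Sox7, Sox17, Sox18) act in endothelium, Sox17 mainly in arteries and Sox18 also in lymphatic vessels.

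The stretch of the HMG box below is shown because it is what the members have in common and what could blur reads between them. It is 27 bases long, capitals mark the positions at which at least 1 of the 10 genes differs, and it was read 5′ to 3′ on each gene's strand from GRCm38. Of the 27 bases, 20 were identical in all 10 genes and 7 were not, and any pair of genes had 21 to 27 in common. The single exon of the SOXC genes held it in each case:
Sox4: CgGccCatgaaCgcCttTatggtGtgg
Sox11: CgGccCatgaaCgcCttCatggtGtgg
Sox12: CgGccGatgaaCgcGttCatggtGtgg
In the SOXD genes it lay in exon 13 of 15 (Sox5), 14 of 16 (Sox6) and 12 of 14 (Sox13):
Sox5: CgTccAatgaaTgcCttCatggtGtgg
Sox6: CgAccAatgaaTgcGttCatggtTtgg
Sox13: AgAccCatgaaTgcCttCatggtGtgg
In Sox9 it lay in exon 1 of 3, in Sox7 and Sox18 in exon 1 of 2 and in Sox17 in exon 3 of 4:
Sox9: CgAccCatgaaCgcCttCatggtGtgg
Sox7: CgGccCatgaaTgcCttCatggtGtgg
Sox17: CgGccGatgaaCgcCttTatggtGtgg
Sox18: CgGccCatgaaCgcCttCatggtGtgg
Sox11 and Sox18 carried the same 27 bases although they belong to different groups. The longest run of bases that 2 members' transcripts had in common was 48, in Sox4 and Sox11. A read without mismatches could be placed in either gene only if it lay within such a run. Reads with mismatches and their placement were not checked.

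On GRCm38 the stretch of Sox4 lay at chr13:28952815-28952841 (-), of Sox11 at chr12:27342232-27342258 (-), of Sox12 at chr2:152397549-152397575 (-), of Sox5 at chr6:143841247-143841273 (-), of Sox6 at chr7:115489736-115489762 (-), of Sox13 at chr1:133385539-133385565 (-) and of Sox9 at chr11:112782903-112782929 (+). That of Sox7 lay at chr14:63943894-63943920 (+), of Sox17 at chr1:4493173-4493199 (-) and of Sox18 at chr2:181671255-181671281 (-). All 10 are exonic and coding. The genes differ in extent, from Sox18 with 1805 bases to Sox6 with 567925 and Sox5 with 953553. The introns of Sox5 and Sox6 hold antisense genes, so that their bulk counts, whose strand setting is not known, are less certain.

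Levels are CPM, the unique molecular identifiers (UMIs) of a gene in every 1000000 UMIs summed over the cells of a deposited subtype in a library, given as mean ± SD over libraries. Libraries of the age series held 28583048 to 93040640 UMIs (median 10005 to 14031 per cell) and the newborn ones 4978011 to 31418527 (2391 to 4686 per cell). All bulk libraries held at least 5785352 counts except replicate 2 of gp38+CD26+ at 4 weeks with 25702, which was left out (n = 5). No 2 libraries shared more than 14 cell barcodes. Per the study, as many thymi as libraries were sorted at E16.5, P0 and W4, and as many newborn mice per genotype. For the bulk libraries no source used here says that replicates are separate mice, so their p-values measure the spread between libraries, which may be technical. P0 replicate 1 of the age series stood apart. Its summed cartilage markers (Col2a1, Acan, Cnmd) reached 315 CPM in endothelium, 173.1 in mural cells, 217 in capsular and 171 in medullary fibroblasts, against 0.334, 14.3, 2.79 and 2.84 in P0 replicate 2, and without it 2 of the 30 class calls of members between P0 and W4 were lost, those of Sox9 in endothelium and Sox13 in mural cells. Another 4 were gained, Sox6 in mural cells and Sox4, Sox7 and Sox18 in all fibroblasts (higher at W4, log2 0.32, 1.26 and 1.04).

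The deposited cell labels were checked against marker genes. Summed fibroblast markers were 1045 to 22111 CPM in all fibroblasts, mural markers 2522 to 18421 in mural cells, endothelial markers 1747 to 3403 in endothelium, mesothelial markers 1143 to 3549 in Mes, glial markers 1920.2 to 23845 in NC and proliferation markers 562 to 1285 in Pr. In the newborn data epithelial markers were 2299.8 to 4469 CPM in epithelium and thymocyte markers 2184 to 3407 in Thy. Markers of other cells reached at most 63.2 CPM for macrophages, 7.25 for parathyroid and 224 for skeletal muscle in any group of the age series, while erythroid markers reached 29800.4 CPM in EnC. Erythroid markers also moved with age, from 69.7 and 80.6 CPM at P0 to 1409.8 and 1459 at W4 in medullary fibroblasts, from 255.9 and 349.5 to 1116 and 2308 in capsular fibroblasts and from 856.4 and 904.9 to 1506 and 4758 in mural cells. In endothelium they were at 107.3 and 16725 CPM at P0 and at 11577 and 21903 at W4. In these 4 classes thymocyte markers went from between 11.99 and 36.03 CPM at P0 to between 32.98 and 111.3 at W4 and epithelial markers from between 2.61 and 8.51 to between 10.5 and 34.8, without overlap within any class. The part of these markers in the changes from P0 to W4 given below was not tested.

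The 19 subtypes of the age series, taken over all 8 libraries, differed in their Sox genes, and of the SOX groups only SOXF had its members highest in the same subtypes. Levels between subtypes are a description, and no test was made. The 3 SOXF genes were highest in the 3 endothelial subtypes, arterial (EnA), capillary (EnC) and venous/lymphatic (EnVL). Sox4, Sox5 and Sox6, although grouped here as Sox genes outside the neural crest, had their highest mean in the neural crest subtype (NC), where 4 of the 8 libraries held at most 10 cells. Sox11 and Sox13 had their highest mean in EnA, Sox12 in mesothelium and Sox9 in a capsular fibroblast subtype.

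**Figure D1:**
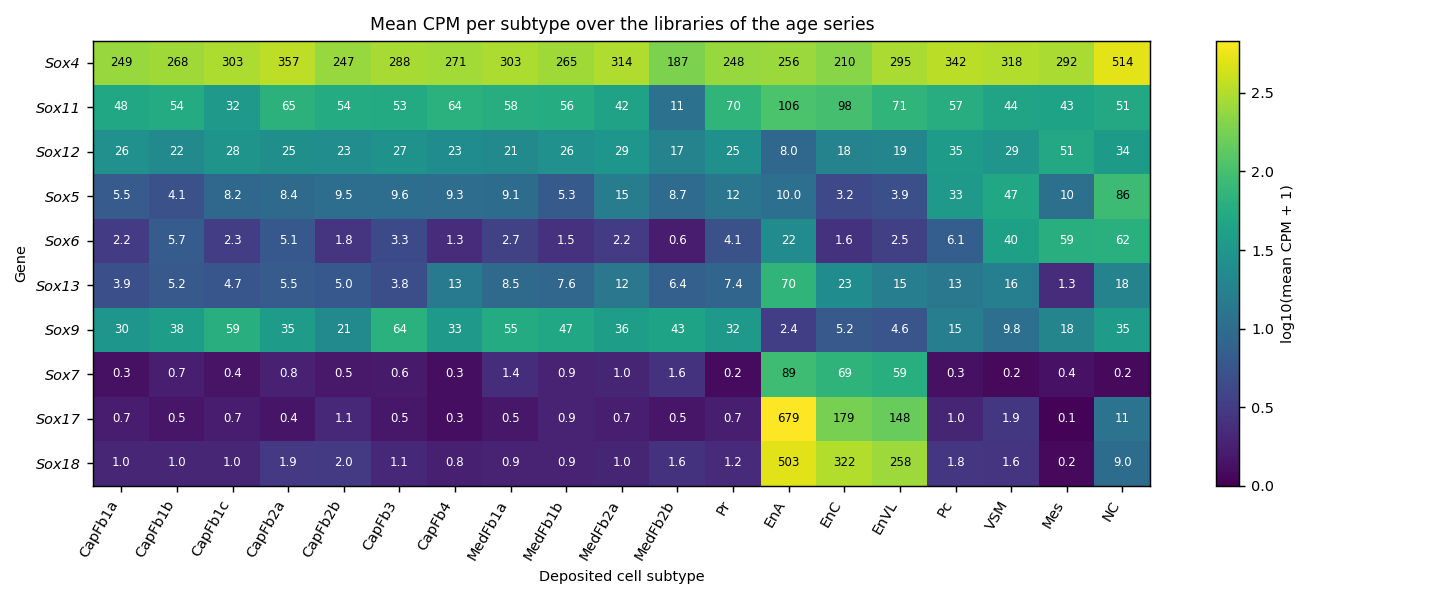
Mean CPM over libraries of each Sox gene (rows) in each subtype of the age series (columns), with colour on a scale of log10(mean CPM + 1). Sox17 reached 679 CPM in EnA and Sox9 64.0 CPM in CapFb3, while Sox4 was found in every subtype and reached 514 CPM in NC.

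Among SOXC genes, Sox4 (ENSMUSG00000076431) was found everywhere. Its lowest mean was in MedFb2b (range 135.7 to 261.7 CPM), which had 6 libraries, none of them from E12.5 or E13.5. Single libraries of other subtypes were lower, down to 48.0 CPM in EnA. Sox4 had its highest mean in NC, with 514 ± 133 (range 289 to 725). CapFb2a followed with 357 ± 223 and pericytes (Pc) with 343 ± 126, and these neighbours overlap NC and each other. Sox11 (ENSMUSG00000063632) had its highest mean in EnA (106 ± 57.7), followed by EnC (97.7 ± 78.2) and EnVL (71.1 ± 72.7). Their ranges overlap each other and those of all other subtypes. The highest EnA library (179.5 CPM) lay below the highest of CapFb4 (343), MedFb1b (325) and Pc (233). Sox12 (ENSMUSG00000051817) was highest in mesothelium (Mes, 50.6 ± 32.9) and Pc (34.6 ± 13.3), again overlapping. The wide SDs of Sox11 and Sox12 come with their change over age, described next.

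Sox11 and Sox12 fell from P0 to W4 in every class of NETS, while Sox4 changed in both directions. In capsular fibroblasts Sox11 was at 261 CPM at E12.5, 104 at E13.5, 14.9 and 15.4 at E16.5, 10.4 and 12.2 at P0 and 0.364 and 0.696 at W4. Both W4 libraries lay below every earlier library. The log2 fold change from P0 to W4 was -4.22 (SE 0.218, adjusted p = 1.71e-05, edgeR's quasi-likelihood test with Benjamini-Hochberg adjustment, used for every adjusted p here). In endothelium Sox11 stayed high for longer, at 225 and 164 CPM at E12.5 and at E13.5, 106 and 99.6 at E16.5, 57.9 and 62.7 at P0, and then 8.07 and 12.2 at W4 (log2 -2.65, SE 0.191, adjusted p = 5.22e-05). The 2 W4 libraries were again the lowest. Medullary fibroblasts (log2 -1.91, SE 0.269, adjusted p = 0.000155) and mural cells (log2 -4.22, SE 0.485, adjusted p = 0.000809) moved the same way. In mural cells W4 replicate 1 held no Sox11 UMI and W4 replicate 2 held 6 (1.39 CPM), and the log2 value was -3.19 without the first and -9.64 without the second (adjusted p = 0.00311 and 0.00138), the latter against a W4 library at 0, so its size depends on the prior count of the fit. The proliferation markers Mki67 and Top2a were also lower at W4 without overlap, from 13.6 and 19.6 CPM to 5.41 and 6.20 in capsular and from 10.7 and 21.3 to 6.53 and 8.40 in medullary fibroblasts, from 15.1 and 25.8 to 8.58 and 14.05 in mural cells and from 18.7 and 31.7 to 9.04 and 18.3 in endothelium. Their part in the SOXC values was not tested.

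By subtype, Sox11 fell in 15 of the 17 subtypes tested, with no call in MedFb2b and Pr. In CapFb3 the W4 libraries held no Sox11 UMI, and against the limit of 3 UMIs over the group the level was at least 24.3-fold lower than at P0. The same bound was at least 10.3-fold in Mes and 8.80-fold in CapFb1b. EnA held the highest level left at W4, 18.2 and 31.1 CPM, against 109 and 88.3 at P0 (log2 -2.13, SE 0.347, adjusted p = 0.000943).

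Sox12 fell in all 16 subtypes in which it was tested, by log2 values from -2.26 (CapFb2a) to -0.92 (CapFb4, adjusted p = 0.0453). It was at 17.2 and 17.3 CPM in endothelium at E16.5, at 18.4 and 14.02 at P0 and at 4.04 and 4.52 at W4 (log2 -1.99, SE 0.245, adjusted p = 0.000656). In medullary fibroblasts it went from 22.4 and 24.4 CPM at P0 to 7.63 and 6.91 at W4 (log2 -1.72, adjusted p = 1.61e-06). The E16.5 and P0 libraries lay close together in both classes and the W4 libraries lay below them.

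Sox4 divided the stroma. In mural cells it was at 566 CPM at E12.5, 460.0 at E13.5, 284 and 282 at E16.5, 339 and 342 at P0 and 175.3 and 145 at W4 (log2 -1.21, SE 0.0951, adjusted p = 0.000181). In endothelium it went from 236 and 229 CPM at P0 to 127.3 and 159.9 at W4 (log2 -0.76, SE 0.133, adjusted p = 0.00372), with E16.5 (113.4 and 133) as low as W4. By subtype Sox4 was called lower in EnVL (log2 -1.80, SE 0.163, adjusted p = 3.66e-05) and EnA (log2 -1.34, SE 0.253, adjusted p = 0.00265). EnC had a log2 value of -0.03 (SE 0.152, adjusted p = 0.915). The difference between these subtypes, whose shares of endothelium also changed with age, was not tested. In medullary fibroblasts Sox4 was called higher at W4, with 237 and 250.9 CPM against 219.6 and 159 at P0 (log2 0.35, SE 0.119, adjusted p = 0.0280), a call that held without P0 replicate 1 (log2 0.58) and was lost in the 5 other fits that left out 1 library (log2 0.14 without P0 replicate 2). Over subtypes 3 were called higher and 6 lower of 17.

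**Figure D2:**
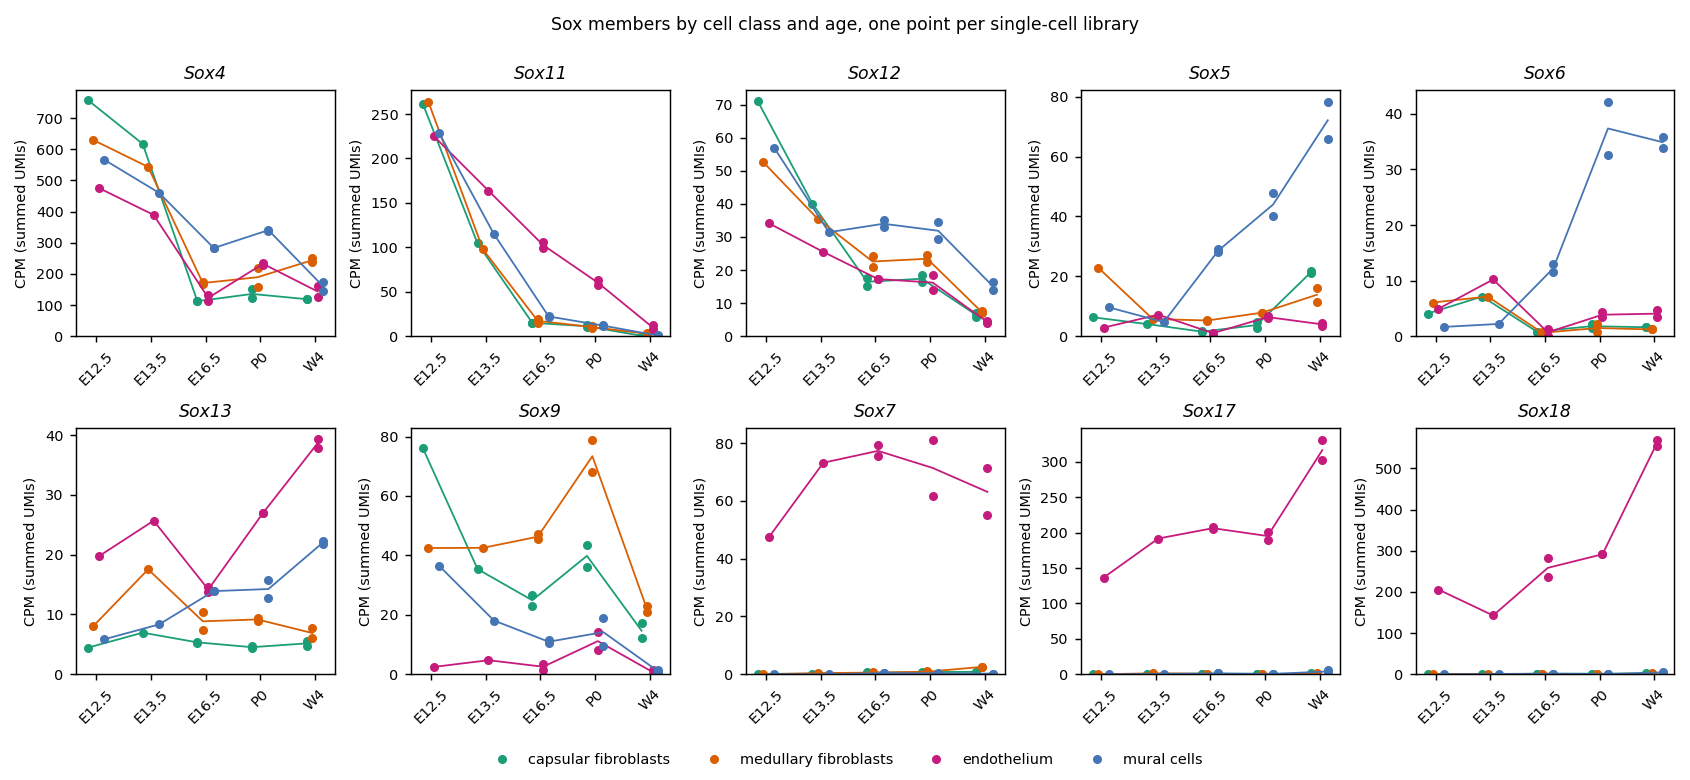
CPM of each Sox gene (1 panel each) against age from E12.5 to W4 in capsular fibroblasts, medullary fibroblasts, endothelium and mural cells, with a point for each library and a line through the means. Sox11 drops from 261 to under 1 CPM in capsular fibroblasts, while Sox18 in endothelium ends at 556 and 569 CPM.

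In the 5 classes (all, capsular and medullary fibroblasts, endothelium and mural cells, the first holding the next 2), 49 member tests passed the filter on low counts and 30 were called between P0 and W4, 13 higher and 17 lower, beside 43.1% of all gene tests in these classes. Within classes 4 of 10 members were called in all fibroblasts (51.4% of genes), 4 of 10 in capsular (48.3%) and 8 of 10 in medullary fibroblasts (52.7%), 6 of 10 in endothelium (24.2%) and 8 of 9 in mural cells (33.7%). In the 17 subtypes tested, 56.5% of the member tests were called, 20 of them higher and 54 lower, beside 27.6% of all gene tests. A test for any difference among the 5 ages called 43 of 49 class tests (74% of all gene tests) and 82.4% of the member tests in subtypes (55.3%).

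The promoters of the SOXC genes, from RefSeq on GRCm38.p6, are shown because Sox11 and Sox12 fell together and Sox4 moved in both directions. Each holds 250 bases before and 50 after the annotated start, read on the gene's strand, at chr13:28953650-28953949 (-), chr12:27342669-27342968 (-) and chr2:152397997-152398296 (-). Capitals mark the letters CCAAT, bound by the factor NF-Y, and the letters GGGCGG, bound by SP1, on either strand:
Sox4: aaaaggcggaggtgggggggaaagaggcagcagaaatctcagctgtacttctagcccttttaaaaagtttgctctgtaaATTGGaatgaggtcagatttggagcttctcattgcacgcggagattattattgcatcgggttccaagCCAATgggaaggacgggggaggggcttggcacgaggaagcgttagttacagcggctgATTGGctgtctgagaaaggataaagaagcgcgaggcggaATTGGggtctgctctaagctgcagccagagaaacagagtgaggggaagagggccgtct
Sox11: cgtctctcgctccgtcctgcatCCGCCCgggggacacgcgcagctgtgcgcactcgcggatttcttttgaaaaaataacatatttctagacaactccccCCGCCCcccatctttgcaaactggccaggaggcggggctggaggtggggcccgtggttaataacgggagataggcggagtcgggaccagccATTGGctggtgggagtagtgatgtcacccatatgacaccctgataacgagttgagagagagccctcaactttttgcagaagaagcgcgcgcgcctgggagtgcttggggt
Sox12: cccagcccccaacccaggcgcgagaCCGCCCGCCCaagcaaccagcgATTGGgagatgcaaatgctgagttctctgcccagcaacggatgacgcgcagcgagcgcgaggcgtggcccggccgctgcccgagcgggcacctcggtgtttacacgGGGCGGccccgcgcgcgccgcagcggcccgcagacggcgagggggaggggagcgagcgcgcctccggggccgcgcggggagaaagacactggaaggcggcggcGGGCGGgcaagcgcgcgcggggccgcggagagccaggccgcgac
CCAAT was found 4 times in Sox4 and 1 time each in Sox11 and Sox12. GGGCGG was found in Sox11 (2 times) and Sox12 (4 times, 2 of them overlapping) and not in these letters of Sox4. GC content was 52.0, 58.7 and 76.7%. Of 32851 promoters of this length, 37.4% held CCAAT and 35.7% GGGCGG, while TATAAA on either strand (13.6% of promoters) was in none of the 3. Nor was ACAAAG on either strand (18.7%), letters that SOX proteins are known to bind. The part of any of these letters in the changes with age was not tested. Sox5 and Sox13 have 1 entry each and Sox6 has 6, and the promoters of Sox7, Sox9, Sox17 and Sox18 were not used here.

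Of 10 listed SOXC targets and neighbours, 9 of the 10 tested were called in medullary fibroblasts (3 higher, 6 lower, median log2 -1.33 beside 0.00 over all genes), 7 of 10 in capsular fibroblasts (1 higher, 6 lower, median -1.61), 5 of 9 in endothelium (1 higher, 4 lower, median -0.78) and 4 of 10 in mural cells, all lower (median -0.52). Of all genes, 52.7% were called in medullary and 48.3% in capsular fibroblasts, 24.2% in endothelium and 33.7% in mural cells. Without P0 replicate 1, 7 were called in medullary (3 higher, 4 lower, 52.8% of all genes) and 8 in capsular fibroblasts (2 higher, 6 lower, 53.5%), 5 in endothelium (1 higher, 4 lower, 15.4%) and 6 in mural cells (1 higher, 5 lower, 37.8%). Genes at 0 in both W4 libraries enter these medians at their limit of 3 UMIs. Marcksl1, which encodes a regulator of the actin cytoskeleton, fell in endothelium by 2.58 on the log2 scale (adjusted p = 1.00e-05) and in capsular fibroblasts by 2.5 (adjusted p = 9.72e-06). Ccnd1 (cyclin D1) rose in medullary fibroblasts (log2 3.26, adjusted p = 5.63e-10), and Mex3a, which encodes an RNA-binding protein, fell in mural cells by 4.36 (adjusted p = 3.14e-05). A further list holds 11 growth-state genes of fibroblasts that were picked because they fall after birth, so its direction was fixed by the choice and its counts are a description only. Of these 11, 10 fell in capsular and 10 in medullary fibroblasts (median -2.60 and -3.98), 7 in endothelium (median -2.57) and 8 of 10 tested in mural cells (median -2.92). Among them Dlk1, an imprinted growth gene, fell by 9.08 in medullary fibroblasts (adjusted p = 2.76e-10).

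Of the SOXD genes, Sox5 and Sox6 were highest in neural crest, mural cells or mesothelium and Sox13 in endothelium. Sox5 (ENSMUSG00000041540) averaged 85.7 ± 37.9 CPM in NC, 47.3 ± 26.7 in vascular smooth muscle (VSM) and 32.6 ± 26.2 in Pc, with overlapping ranges. Sox6 (ENSMUSG00000051910) averaged 62.4 ± 64.1 in NC, 58.6 ± 18.97 in Mes, 39.9 ± 27.2 in VSM and 22.3 ± 19.4 in EnA, all overlapping, and 6.10 ± 4.31 in Pc. Sox5 was found in both VSM and Pc. With only libraries of at least 20 cells of a subtype, Mes ranked first for Sox6. Sox13 (ENSMUSG00000070643) was highest in EnA (70.3 ± 15.9, range 49.96 to 94.6), above EnC in every library (23.1 ± 10.6, range 9.63 to 38.0).

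Sox5 rose in capsular fibroblasts after birth. It was at 6.34 CPM at E12.5, 4.06 at E13.5, 1.60 and 1.48 at E16.5, 4.85 and 2.61 at P0 and 21.2 and 21.8 at W4. Both W4 libraries lay above all 6 earlier ones (log2 2.60, SE 0.244, adjusted p = 0.000164, and 3.1 without P0 replicate 1). All 7 capsular subtypes were called higher, from log2 1.45 in CapFb2a (adjusted p = 0.0450) to 3.67 in CapFb1c (adjusted p = 9.66e-06). In CapFb4 it went from 5.96 and 1.49 CPM to 33.1 and 30.98 (log2 3.08, SE 0.340, adjusted p = 1.46e-07).

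Between P0 and W4 the log2 values of Sox5 were nearer to 0 in medullary fibroblasts, mural cells and endothelium, and the difference between classes was not tested. In mural cells it was at 9.63 and 4.73 CPM at E12.5 and at E13.5, and then higher at each age, with 29.3 and 28.0 at E16.5, 40.1 and 47.9 at P0 and 78.3 and 65.9 at W4. From P0 to W4 the log2 value was 0.59 (SE 0.119, adjusted p = 0.00885), and the call was lost without W4 replicate 1 (log2 0.48, adjusted p = 0.0725). Pc was called (log2 0.89, SE 0.160, adjusted p = 0.00125), while VSM had a log2 value of 0.39 (SE 0.167, adjusted p = 0.125). In medullary fibroblasts Sox5 was at 7.87 and 7.90 CPM at P0 and at 16.3 and 11.5 at W4 (log2 0.78, SE 0.163, adjusted p = 0.00226), and endothelium had a log2 value of -0.76 (adjusted p = 0.192).

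Sox6 in mural cells differed among ages. It was at 1.68 and 2.22 CPM at E12.5 and at E13.5, 11.5 and 12.9 at E16.5, 32.6 and 42.2 at P0 and 35.9 and 33.9 at W4. The test among ages was called (adjusted p = 4.61e-05), whereas P0 and W4 overlapped (log2 -0.22, SE 0.149, adjusted p = 0.278), with a call without P0 replicate 1 (log2 -0.41, adjusted p = 0.0258). With all libraries no class was called for Sox6 between P0 and W4, and of 13 subtypes only Pc was (log2 -1.14, SE 0.308, adjusted p = 0.0141). VSM, where Sox6 was higher than in Pc in every library from E13.5 on, made up 303 of 1178 and 314 of 1276 mural cells at E16.5 and 449 of 885 and 618 of 1478 at P0, so the class level holds a change of makeup. Within Pc Sox6 was at 4.56 and 3.06 CPM at E16.5 and 12.2 and 12.6 at P0, and within VSM at 29.6 and 41.2 at E16.5, and the test among ages was called in both (adjusted p = 0.000446 and 0.000653). In VSM Sox6 was at 47.1 and 73.6 CPM at P0 and at 68.96 and 54.3 at W4.

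Sox13 differed among ages in 4 of 5 classes and was called between P0 and W4 in 1. In endothelium it was at 19.8 and 25.7 CPM at E12.5 and at E13.5, 14.6 and 13.8 at E16.5, 26.9 and 27.03 at P0 and 39.4 and 37.9 at W4, which did not overlap with the other ages (among ages, adjusted p = 0.000990, and from P0 to W4 log2 0.45, SE 0.150, adjusted p = 0.0578). EnA, the subtype with most Sox13, made up more of endothelium at W4 than at P0, as given below for Sox17. The part of this change of makeup was not tested. None of 16 subtypes was called between P0 and W4, and the lowest adjusted p was 0.0632. The class of mural cells was called (log2 0.50, SE 0.148, adjusted p = 0.0360), which did not hold without P0 replicate 1 (log2 0.35, adjusted p = 0.0871) and held, of the 6 fits that left out a library, only without P0 replicate 2 (log2 0.67, adjusted p = 0.00879).

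The SOXE gene Sox9 (ENSMUSG00000000567), a regulator of cartilage and of several epithelia, had its 5 highest means in fibroblast subtypes. CapFb3 averaged 64.0 ± 25.3 CPM, CapFb1c 58.9 ± 126, MedFb1a 54.9 ± 22.8, MedFb1b 47.4 ± 24.2 and MedFb2b 42.6 ± 24.2. The value of CapFb1c rests on 371 CPM from 10 cells of the E12.5 library, its other libraries being between 7.58 and 25.98. These neighbours overlap, and after thinning every cell to 2000 UMIs MedFb1a ranked first, while NC did with only libraries of at least 20 cells. NC held Sox9 in the embryo (29.99 and 17.7 CPM at E12.5 and at E13.5), but at P0 it was at 211 CPM in replicate 1 (39 cells), with cartilage markers at 1796 CPM, and at 0 in replicate 2 (25 cells, cartilage markers at 0). Sox9 in NC at P0 was therefore a value of 1 library.

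Sox9 fell in each class of the single cells from P0 to W4. In medullary fibroblasts it was at 42.5 and 42.6 CPM at E12.5 and at E13.5, 47.1 and 45.5 at E16.5, 78.9 and 67.9 at P0 and 20.8 and 22.9 at W4. P0 was the highest age and W4 the lowest, with no overlap (log2 -1.76, SE 0.0954, adjusted p = 1.42e-07, and -1.66, adjusted p = 6.69e-09, without P0 replicate 1). In capsular fibroblasts Sox9 was at 43.6 and 36.1 CPM at P0 and at 12.1 and 17.2 at W4 (log2 -1.34, SE 0.170, adjusted p = 0.000660, and -1.19, adjusted p = 4.98e-05, without that library). Low levels in mural cells (18.8 and 9.54 CPM at P0, 0.669 and 1.39 at W4) gave a log2 value of -3.87 (adjusted p = 0.00160, and -3.33, adjusted p = 7.95e-05, without it), and in endothelium the call did not hold without it (log2 -3.80, adjusted p = 0.00899, and -3.36, adjusted p = 0.0597). Nor did the endothelial call hold without W4 replicate 2, which held no Sox9 UMI (log2 -2.91, adjusted p = 0.0511), and without W4 replicate 1, with 5 UMIs, the log2 value was -8.98 (adjusted p = 0.0263), again against a library at 0. Of 16 subtypes 15 were called lower and CapFb3 was not, with 69.9 and 95.7 CPM at P0 and 40.3 and 67.8 at W4 (log2 -0.42, SE 0.251, adjusted p = 0.270).

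Of 15 listed cartilage genes of SOX9, SOX5 and SOX6, 10 of 14 tested fell in medullary fibroblasts, 6 fell and 1 rose of 14 in capsular fibroblasts, 7 of 13 fell in endothelium and 7 of 14 in mural cells, with medians of -5.80 in capsular and -5.36 in medullary fibroblasts, -5.55 in endothelium and -5.09 in mural cells beside -0.02 to 0.00 over all genes. Without P0 replicate 1, whose cartilage markers stood apart, the medians were -2.79, -1.55, -4.52 and -3.68 as fitted, beside -5.97, -5.59, -6.67 and -5.52 as fitted with all libraries. The share of all genes called in each class is given above, and the 7 of 14 in capsular fibroblasts lay near the 48.3% there. Fewer list genes passed the filter without that library, with 5 lower and 1 higher of 10 in medullary fibroblasts (52.8% of all genes called in that fit), 7 lower and 1 higher of 9 in capsular fibroblasts (53.5%), 2 lower of 5 in endothelium (15.4%) and 6 lower of 7 in mural cells (37.8%). Col2a1, which encodes the main collagen of cartilage, fell in medullary fibroblasts (adjusted p = 0.0132, and 4.71e-05 without that library), and Matn4, a matrix adaptor, rose in capsular fibroblasts (log2 1.99, adjusted p = 0.0257, and 3.69, adjusted p = 2.46e-07, without it). Of 9 other Sox genes only Sox8 was called, lower in medullary fibroblasts (log2 -3.29, adjusted p = 3.38e-06) and in all fibroblasts (log2 -1.08, adjusted p = 0.00204), with none of 4 called in capsular fibroblasts and the 1 tested in mural cells not called, although Sox8 was called lower there without P0 replicate 1 (log2 -1.69, adjusted p = 0.0221).

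The SOXF genes marked endothelium. Sox17 (ENSMUSG00000025902) averaged 679 ± 142.5 CPM in EnA (range 443 to 849.7), 178.8 ± 56.9 in EnC (111.8 to 270.5) and 147.5 ± 37.6 in EnVL (83.5 to 189), so that EnA lay above both in every library while EnC and EnVL overlapped. Sox18 (ENSMUSG00000046470) was more even, with 503 ± 171, 322 ± 158.2 and 258 ± 143.8. Sox7 (ENSMUSG00000063060) was the most even, with 88.7 ± 41.3, 69.2 ± 14.9 and 59.4 ± 18.8, all overlapping, and at most 1.60 in any other subtype. Sox17 in NC averaged 10.8 CPM, from 86.01 CPM in W4 replicate 1, which held 7 NC cells, and at most 0.412 in the other libraries, while NC of that library also held 344 CPM of the endothelial gene Pecam1. In cells thinned to 2000 UMIs, 68.4% of EnA cells held Sox17, 59.8% Sox18 and 42% both, where independent detection gives 40.9%. In all endothelium the values were 30.9%, 43.1%, 15.4% and 13.3%, against 0.122% for Sox17 and 0.205% for Sox18 in all fibroblasts, and Sox7 was found in 12.7% of endothelial cells and 0.107% of fibroblasts.

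Sox17 and Sox18 rose in endothelium from P0 to W4 and Sox7 was not called. Sox18 was at 206 and 142.8 CPM at E12.5 and at E13.5, 282 and 235 at E16.5, 291 and 292 at P0 and 556 and 569 at W4. Both W4 libraries lay above all 6 others (log2 0.88, SE 0.112, adjusted p = 0.000742). Sox17 was at 136.6 and 191.8, 208 and 205, 189 and 202 and, at W4, 331 and 302 CPM, again with W4 above the rest (log2 0.63, SE 0.0930, adjusted p = 0.00168). Without P0 replicate 1 the values were 0.85 (adjusted p = 0.0103) for Sox18 and 0.56 (adjusted p = 0.0189) for Sox17. Sox7 was at 61.6 and 81.1 CPM at P0 and 54.9 and 71.3 at W4 (log2 -0.25, SE 0.182, adjusted p = 0.350).

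Within endothelial subtypes Sox18 rose in all 3, most in EnVL, from 186 and 209 to 484 and 472 CPM (log2 1.23, SE 0.168, adjusted p = 0.000571), and by log2 values of 0.75 in EnA (adjusted p = 0.0109) and 0.69 in EnC (adjusted p = 0.00563). Sox17 was called in EnC (log2 0.57, SE 0.158, adjusted p = 0.0344) and not in EnA (log2 0.29, SE 0.181, adjusted p = 0.361) or EnVL (log2 0.35, SE 0.271, adjusted p = 0.450). The difference between subtypes was not tested. EnA, the subtype with most Sox17, made up 29 of 283 and 31 of 291 endothelial cells at P0 and 79 of 425 and 71 of 443 at W4, so the class level holds a change of makeup whose part in it was not tested. Sox7 fell in EnA, from 94.2 and 75.3 to 36.4 and 50.3 CPM (log2 -1.08, SE 0.315, adjusted p = 0.0402). Mural markers in EnA went from 264.6 CPM in the lower P0 library to 922.5 in the lower and 3229 in the higher W4 library, with no overlap, and their part in this fall was not tested.

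SOXF genes were also called higher at W4 at low levels outside endothelium. Sox18 went from a mean of 0.632 to 4.56 CPM in mural cells (log2 2.72, adjusted p = 0.00316) and from 0.485 to 1.66 in medullary fibroblasts (log2 1.71, adjusted p = 0.0126, and 0.0829 without W4 replicate 1). Sox17 went from 0.476 to 4.01 CPM in mural cells (log2 2.91, adjusted p = 0.00981, and 0.0586 without W4 replicate 2) and from 0.271 to 0.900 in medullary fibroblasts (log2 1.82, adjusted p = 0.0496, a call that held of 6 fits leaving out a library only without P0 replicate 1), and Sox7 from 0.877 to 2.55 there (log2 1.55, adjusted p = 0.00851). The summed endothelial markers Pecam1, Cdh5, Kdr and Tie1 moved with them, from 6.85 and 9.35 CPM to 21.0 and 36.6 in mural cells and from 6.90 and 7.31 to 14.2 and 15.3 in medullary fibroblasts, and their part in these calls was not tested.

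Of 24 listed endothelial genes of the SOXF programme, all were tested in endothelium and 10 were called, 6 higher and 4 lower (median log2 0.11 beside -0.00 over all genes, of which 24.2% were called). Without P0 replicate 1 it was 3 higher and 5 lower, beside 15.4% of all genes. Hey1, a Notch effector of arteries, rose by a log2 value of 0.94 (adjusted p = 0.0230, and 0.138 without that library) and Flt1, a VEGF receptor, by 0.85 (adjusted p = 0.00128). The lymphatic genes Lyve1 and Prox1, of which Prox1 is a target of SOX18, fell by 6.47 (adjusted p = 0.000124) and 5.39 (adjusted p = 3.80e-05) on the log2 scale. These are values of the whole endothelial class, whose subtype shares changed with age. Fewer lymphatic cells and less RNA per cell cannot be told apart in them. The same list had 13 of 24 called in mural cells (8 higher, 33.7% of all genes), 16 of 20 in medullary fibroblasts (10 higher, 52.7%) and 7 of 24 in capsular fibroblasts (4 higher, 48.3%), beside the endothelial marker sums above.

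**Figure D3:**
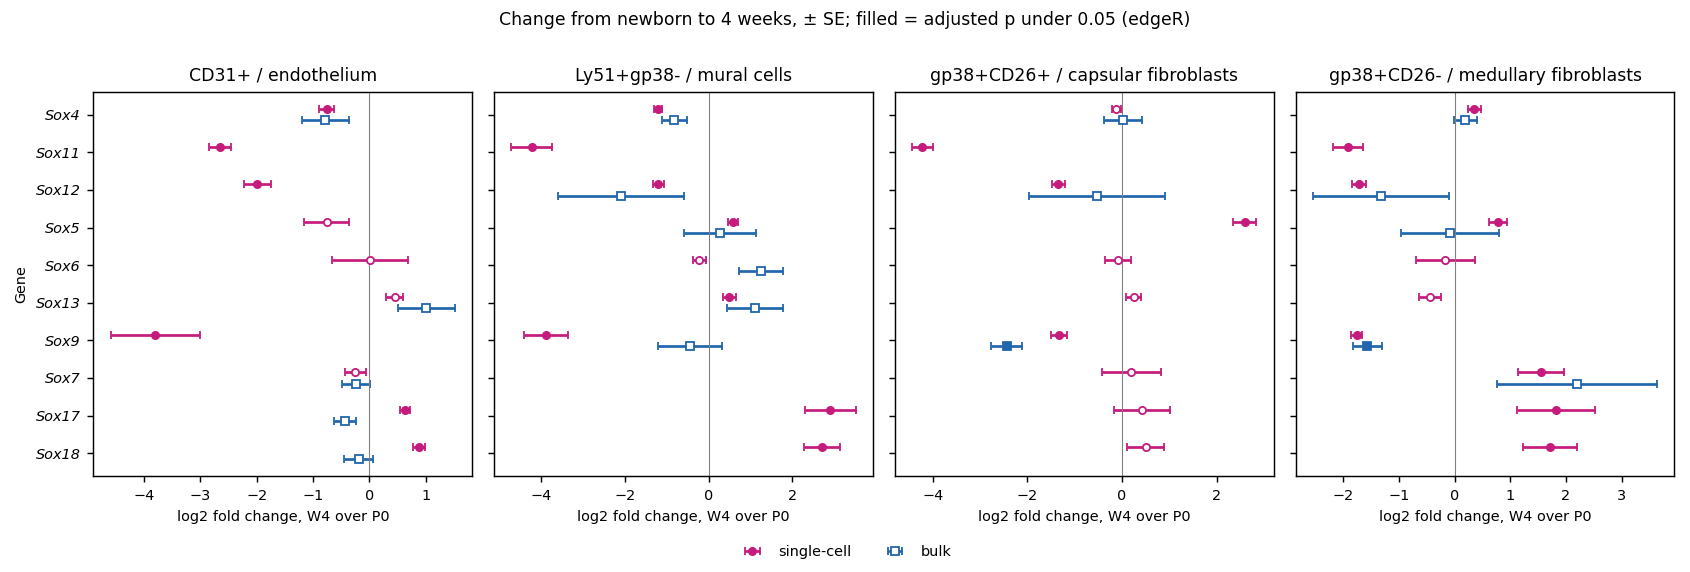
Log2 fold change from P0 to W4 ± SE of each Sox gene in 4 panels, each pairing a sorted bulk population with the single-cell class nearest to it, filled points having adjusted p under 0.05. Sox9 is lower at W4 in gp38+CD26+ and gp38+CD26- cells and in both fibroblast classes. It is also called lower in mural cells, but not in Ly51+gp38- cells. Sox5 of gp38+CD26+ cells is not plotted because every P0 library was at 0.

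Bulk RNA-seq gave the members in sorted populations, where fewer cells of a type and less RNA per cell cannot be told apart. Populations were sorted by surface proteins and compared at each age. Sox17 was at 587, 637 and 996 CPM (lowest, median and highest of 6) in CD31+ cells at P0, at 0 in all gp38+CD26+ and gp38+CD26- libraries and at most 5.61 in Ly51+gp38- cells. Against the limit of 3 counts over the group, CD31+ was at least 15711-fold higher than gp38+CD26+ and at least 17119-fold higher than gp38+CD26- cells. Sox7 (249.9, 361 and 531 CPM) was at least 8287-fold higher than in gp38+CD26+ cells and Sox18 (177, 268 and 374 CPM) at least 6822-fold higher than in Ly51+gp38- cells. No CD31+ library overlapped another NETS population for these 3 genes.

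Tested against the mean of the other 3 NETS populations, 6 of 9 members were called in CD31+ cells at P0, 5 higher and 1 lower (31.8% of genes were called), and 6 of 9 at 4 weeks, 4 higher and 2 lower (32.2%). The 3 SOXF genes were called at both ages, with adjusted p of 7.06e-07 (Sox7), 5.34e-08 (Sox17) and 2.97e-09 (Sox18) at P0 and 2.11e-07, 3.25e-07 and 3.18e-06 at 4 weeks. Sox13 was called higher in CD31+ cells at both ages (15.6 ± 6.29 CPM at P0, log2 2.52, adjusted p = 0.0378, and 29.6 ± 24.8 at 4 weeks, log2 2.91, adjusted p = 0.0225). At 4 weeks replicate 1 held Sox13 at 79.5 CPM and the other CD31+ libraries at 12.2 to 23.6. Ly51+gp38- libraries overlapped them at both ages, with 3.71 to 10.1 CPM at P0 and 2.77 to 33.6 at 4 weeks. The gp38+ libraries were at most at 5.47 and 7.36 CPM, so the calls lean on those groups. Sox9 was lower at both ages (1.81 ± 2.44 and 0.136 ± 0.333 CPM), as was Sox5 at 4 weeks, at 0 in all 6 CD31+ libraries. Sox6 was called higher at P0, but at 3.29 ± 3.84 CPM in CD31+ cells it lay below Ly51+gp38- cells (21.2 ± 10.5), and the call rests on the gp38+ groups, which were at 0. Of 24 listed endothelial genes, 20 of 22 tested were higher in CD31+ cells and 1 lower at each age (median log2 6.64 and 7.15 beside -0.02 and -0.07). The list holds Pecam1, which encodes CD31 itself, and other endothelial markers. Its direction was thus largely set by the sort, and these counts are a description only.

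Ly51+gp38- cells, which the study assigns to pericytes and VSM, held most Sox5 and Sox6 of the NETS. Sox5 was at 0, 22.4 and 39.3 CPM at P0 and 4.85, 21.6 and 52.9 at 4 weeks. Sox6 was at 5.65, 24.4 and 32.7 CPM at P0 and 18.1, 33.2 and 114 at 4 weeks. Both were called higher than in the other NETS at P0 (3 of 9 members called, 13.4% of genes, adjusted p = 0.000214 and 0.000178) and at 4 weeks (3 of 9, 25%, adjusted p = 4.83e-08 and 0.00611). Sox4 was the third at P0 (log2 0.59, adjusted p = 0.0354). Sox9 was the third at 4 weeks (log2 1.99, adjusted p = 0.0245), with 19.99 ± 11.2 CPM against 70.8 ± 24.1 in gp38+CD26- and 0.136 ± 0.333 in CD31+ cells, so the call rests on the CD31+ group.

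The gp38+ populations, of which per the study gp38+CD26+ cells are capsular and gp38+CD26- cells mainly medullary fibroblasts with some capsular ones, differed in 1 of 9 members at each age. At P0 it was Sox5, at 0 in all gp38+CD26+ libraries and at 5.56 ± 4.69 CPM (SD, n = 6, lowest 0, median 4.76) in gp38+CD26- cells (at least 123.6-fold, adjusted p = 0.0187, beside 2.14% of genes called). That bound takes in counting error only, and capsular fibroblasts of the single cells did hold Sox5 at P0. At 4 weeks it was Sox7, at 0 in all 5 gp38+CD26+ libraries and at 2.66, 7.79 and 19.3 CPM in gp38+CD26- cells (at least 201-fold, adjusted p = 0.00338, beside 7.81%). Sox9 was at 72.2 ± 29.1 CPM in gp38+CD26+ and 234 ± 70.1 in gp38+CD26- cells at P0 (log2 -1.63, adjusted p = 0.226), and at 12.2 ± 1.87 and 70.8 ± 24.1 at 4 weeks (log2 -2.48, adjusted p = 0.109). Its libraries did not overlap between the populations at either age, yet neither difference passed the test. That test took its estimate of the spread from all NETS populations together, CD31+ cells with little Sox9 included. The missing call therefore does not show that the gp38+ populations are alike in Sox9.

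Between P0 and 4 weeks the fibroblast populations changed in Sox9 and Sox5. Erythroid markers differed between the same libraries without overlap, at up to 0.457 CPM at P0 and 20.2 to 2636 at 4 weeks in gp38+CD26- and at 0.0933 to 2.49 and 921.1 to 2362 in gp38+CD26+ cells, where epithelial markers also went from 0.692 to 25.9 at P0 to 37.5 to 115.9. Their part in these changes was not tested. Sox9 in gp38+CD26- cells had a median of 241 and a highest value of 322 CPM at P0 (mean 234 ± 70.1) and was at 37.6, 77.3 and 102 at 4 weeks, with no overlap (log2 -1.57, SE 0.263, adjusted p = 0.000542). In gp38+CD26+ cells it was at 25.1, 84.8 and 95.5 CPM and then between 10.1 and 14.3, with no overlap (log2 -2.44, SE 0.334, adjusted p = 0.000397). Sox5 in gp38+CD26+ cells went from 0 in 6 libraries to 6.21, 9.18 and 11.5 CPM in 5 (at least 209-fold by counting error alone, adjusted p = 0.000527). In the single cells Sox5 rose in every capsular subtype, but it was present at P0 and the class had a far smaller log2 value of 2.60. In gp38+CD26- cells Sox5 had a log2 value of -0.08 (adjusted p = 0.962), while it was called higher in medullary fibroblasts (log2 0.78). One of 5 members tested was called in gp38+CD26- cells (24.3% of genes) and 2 of 4 in gp38+CD26+ cells (13.2%).

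In CD31+ cells none of 5 members was called (5.09% of genes), with 1 at an unadjusted p under 0.05 and none by DESeq2. Sox18 was at 273 ± 90.2 CPM at P0 and 223 ± 91.5 at 4 weeks (log2 -0.19, adjusted p = 0.806), and Sox17 at 707 ± 160.7 and 491 ± 147 (log2 -0.44, SE 0.195, adjusted p = 0.253). Both had been called higher at W4 in the endothelium of the single cells, and the 2 assays, which count different things in differently sorted cells, were not tested against each other. Mural markers were at 42.2 to 146.8 CPM in CD31+ cells at P0 and at 634.6 to 1807 at 4 weeks, and their part was not tested. In Ly51+gp38- cells none of 6 was called (11.9%), with 2 at an unadjusted p under 0.05, Sox4 (39.5 ± 9.08 to 20.5 ± 7.06 CPM, log2 -0.82, adjusted p = 0.0942) and Sox6 (log2 1.25, adjusted p = 0.155), and DESeq2 called 1. Sox9 had a log2 value of -0.44 in these cells (SE 0.774, adjusted p = 0.812). In mural cells of the age series it had been called lower at W4 (log2 -3.87), and the difference between the assays was not tested. In mTEC none of 5 was called (5.99%), with none at an unadjusted p under 0.05 and none by DESeq2. Sox11 was at most 1.26 and Sox12 at most 6.02 CPM on average in any bulk population, too low for most of these tests. In CD31+ cells at P0 Sox11 reached at most 0.830 CPM, far below its level in the single-cell endothelium at P0 given above. The reason for this gap between the assays was not tested.

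**Figure D4:**
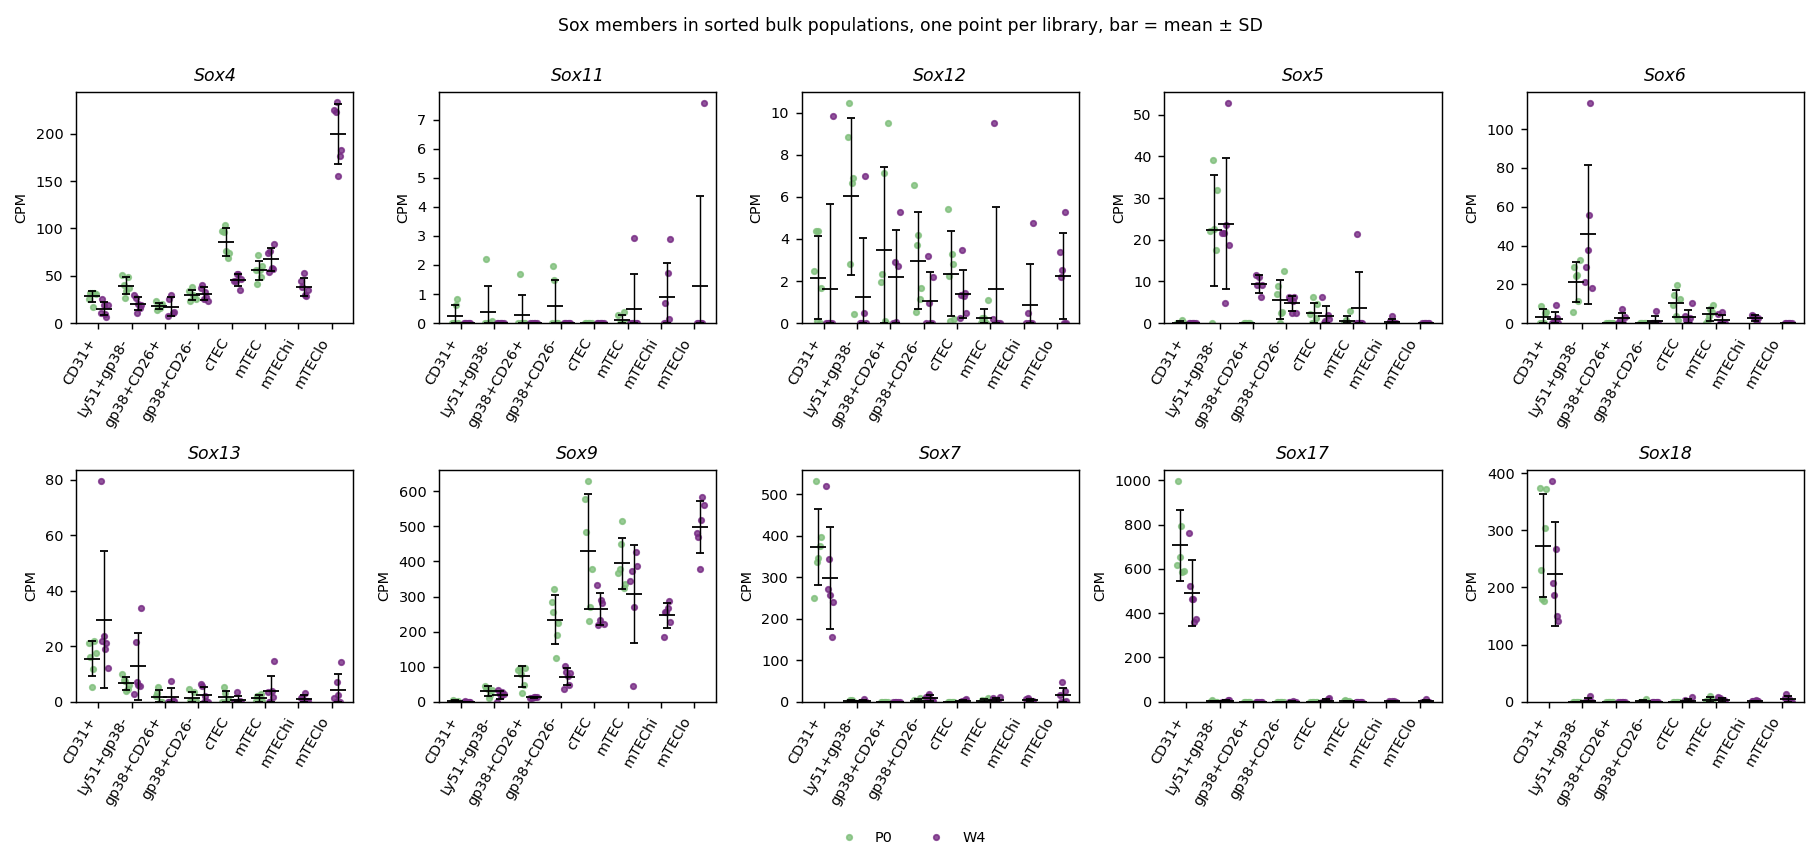
CPM of each Sox gene (1 panel each) in every bulk library of the 8 sorted populations at P0 and 4 weeks, with bars at the mean ± SD. Sox7, Sox17 and Sox18 stand in CD31+ cells, Sox9 in epithelium and gp38+CD26- cells, and Sox4 highest in mTEClo at 155.8 to 233 CPM.

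Sox4 and Sox9 had the highest levels of the members in thymic epithelium, where the next were Sox6 in cTEC at P0 (10.2 ± 6.85 CPM) and Sox7 in mTEClo (15.2 ± 18.7). Sox9 was at 230.2, 432 and 629 CPM in cTEC and 325, 373 and 514 in mTEC at P0, higher on average than in any NETS population, and cTEC and mTEC overlapped (log2 0.02, adjusted p = 0.959). Bulk titles carry the prefix TXCK or DFCK, whose meaning is not given. Under TXCK, cTEC was at 485 to 629 and mTEC at 367 to 450 CPM, without overlap. Under DFCK they were at 230.2 to 379 and 325 to 514, with overlap, and the difference between prefixes was not tested. At 4 weeks Sox9 was at 377, 499.9 and 585 CPM in mTEClo and 185.2, 255 and 288 in mTEChi, with no overlap (mTEChi minus mTEClo log2 -0.82, SE 0.138, adjusted p = 0.000888). Sox4 was at 155.8, 203 and 233 CPM in mTEClo and 28.9, 36.7 and 52.9 in mTEChi (log2 -2.19, SE 0.180, adjusted p = 8.25e-06). These were 2 of the 5 members tested, beside 16.4% of genes.

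Sox4 fell in cTEC from 68.4, 86.3 and 104 CPM at P0 to 34.8, 45.7 and 52.0 at 4 weeks, with no overlap (log2 -0.85, SE 0.149, adjusted p = 0.00102). It was the only one of 5 members called (22.3% of genes), Sox9 having a log2 value of -0.64 (SE 0.224, adjusted p = 0.0554). In mTEC Sox4 was at 55.7 ± 10.1 and 67.4 ± 12.2 CPM (log2 0.28, adjusted p = 0.485). Sox4 was higher in cTEC than in mTEC at P0 (log2 0.53, adjusted p = 0.0105, 1 of 4 members called, 43.5% of genes) and lower at 4 weeks (log2 -0.66, adjusted p = 0.0181, 1 of 3, 25.2%). Thymocyte markers summed to 417 to 1863 CPM in cTEC at 4 weeks and 25.7 to 50.1 at P0, and thymocytes (Thy) of the newborn WT data held Sox4 at 1124 ± 78.4 CPM. Fibroblast markers (12.6 to 124.8 CPM at P0, 339.7 to 1791 at 4 weeks), mural markers (88.1 to 191.6 and 242.1 to 822.7), endothelial markers (0 to 0.969 and 8.86 to 76.4) and erythroid markers (0 to 1.13 and 25.9 to 1110.3) were also higher in cTEC at 4 weeks without overlap. The part of these markers in the cTEC levels was not tested.

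Age changes differed between the 6 populations for 5 of the 10 members (21.1% of genes), Sox4 (adjusted p = 0.00777), Sox5 (0.00603), Sox6 (0.0112), Sox17 (0.00909) and Sox18 (0.00626). Sox9 was not called (adjusted p = 0.0688), in a fit that holds its falls in both gp38+ populations. The comparisons of age and of population share their libraries.

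The newborn data ask whether libraries labelled Tbx1+/-Crkl+/- differ from WT. Tbx1 was at 1.79, 0.441 and 0.605 CPM in the WT libraries (13, 6 and 19 UMIs) and at 0, 0 and 0.872 under the label Tbx1+/-Crkl+/- (0, 0 and 8 UMIs), with overlap. Crkl was at 23.0, 25.1 and 18.4 CPM in WT and at 24.1, 23.6 and 26.9 under that label, which is not lower, although a tag at the 3′ end need not lie in the deleted part. Replicate 2 of that label also held parathyroid markers (Pth, Gcm2) in every class, at 318 CPM over all cells and 154.9 to 446.9 in the classes, against at most 21.9 in the classes of the other 5 libraries. Erythroid markers over all cells were at 514.5, 270.1 and 51.5 CPM under the label and 13.9, 52.5 and 42.8 in WT. Fibroblast markers in all fibroblasts were at 6029.8 to 8375 CPM under the label and 8529 to 11851 in WT, without overlap. Median UMIs per cell were 2391 to 2551 under the label and 2577 to 4686 in WT, also without overlap. The part of these markers and of depth in the genotype values was not tested. No member was called in any of 42 class tests (0.0387% of all gene tests, 4 at an unadjusted p under 0.05) or 59 subtype tests (0.0481%, 7 at an unadjusted p under 0.05), and DESeq2 called 0 of each.

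Sox5 in medullary fibroblasts had the lowest adjusted p of the class tests. In medullary fibroblasts it was at 18.2, 16.0 and 13.49 CPM in WT and at 33.3, 26.5 and 26.98 under the label Tbx1+/-Crkl+/-, with no overlap (log2 0.85, SE 0.295, adjusted p = 0.424). In mural cells it was at 75.9, 72.8 and 60.2 CPM in WT and at 98.4, 74.5 and 112.7 under that label, with overlap (log2 0.44, adjusted p = 0.822). The log2 value of Sox5 was 0.44 to 0.85 in all 5 classes with a test, none of them called. Without replicate 2 of the libraries labelled Tbx1+/-Crkl+/- it was called in Pr (log2 1.61, adjusted p = 0.0310, against 1.08 and 0.532 with all 6). Sox18 in endothelium averaged 142.8 ± 38.4 against 206 ± 80.7 CPM in WT, with overlap (log2 -0.56, adjusted p = 0.999). In epithelium Sox4 was at 499 ± 122.2 against 585 ± 45.4 and Sox9 at 183.7 ± 8.57 against 203 ± 27.2 CPM. No gene of the 5 lists was called in any class.

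The genes whose level ran most like a member's were sought over the 14 bulk groups by Pearson's r of mean log2(CPM + 1), among 15363 genes with at least 5 CPM in 1 group or more. The groups are means over libraries of sorted populations that share ages and cell types, and no p is given. Sox17 ran with Grrp1 (0.974), Robo4 (0.973) and Cdh5 (0.972), and Sox18 with Cldn5 (0.989), Gpihbp1 (0.981) and Mmrn2 (0.979). Sox7 ran with Ifi213 (0.959), Cldn5 (0.955) and Aplnr (0.939). Robo4, Cdh5 and Cldn5 encode proteins of the endothelial surface and junctions, and Gpihbp1 one of the capillary surface. Sox13 ran with Cd93 (0.927), Gcnt2 (0.919) and Taf9b (0.905), of which Cd93 is also endothelial.

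Sox9 ran with Hunk (0.950), Msc (0.950) and Mdk (0.934), and Sox4 with Sipa1l3 (0.933), Zc3h7b (0.923) and A330074K22Rik (0.918). Mdk encodes the growth factor midkine and Msc a repressor of the basic helix-loop-helix family. Sox6 ran with Nrip2 (0.918), Ate1 (0.890) and Pdcl3 (0.876), Sox5 with Slc25a23 (0.864), Slc6a9 (0.860) and Pde1a (0.854), and Sox12, which was low throughout, with Ech1 (0.797), Lzts2 (0.794) and Zfp715 (0.793). Sox11 had no bulk group at 5 CPM and was not compared.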

How the data were processed

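3 processed count tables were used. The authors deposited UMI counts per gene and cell for the age series and for the newborn libraries, with a table that gives each cell's subtype, and read counts per Ensembl gene for the bulk libraries. Per the labels and the study's methods, single-cell reads were aligned with Cell Ranger 3.1.0 and cells were filtered at 1000 genes and 5% mitochondrial reads, with doublets removed by DoubletFinder (no caller was run here), and bulk reads were aligned with STAR 2.5.3a and counted with HTSeq. The cells with fewest genes held 999 in the age series and 876 in the newborn data, under that stated filter. The submitters' processing notes name mm10 (GRCm38) and GRCh38. How strand was set in bulk counting is not given in the sources used here. Rows that name no gene (7.81 to 29.4% of bulk counts) were left out of totals, and 37607 of 39179 bulk IDs had a symbol.

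Counts were summed per library and subtype, or per class (fibroblasts, endothelium, mural cells, epithelium), using groups of at least 20 cells, and tested with edgeR 4.0.16 (quasi-likelihood test, TMM scaling, low counts filtered) in R 4.3.3 over all genes, with Benjamini-Hochberg adjustment and a threshold of 0.05. W4 against P0, any age difference, genotype, age within bulk populations, populations within age and the interaction of age and population were tested. Shares of cells were taken after thinning to 2000 UMIs. Levels in subtypes needed 5 cells in a library. Sums, plots and levels were made in Python 3.11.15. The tests were checked on simulated data. One bulk library with fewer than 1000000 counts was left out. Intervals and limits from 3 counts cover counting error only.

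The members and gene lists were chosen with earlier results of these data known. Named are the members in every comparison, Tbx1 and Crkl, at most 2 called genes with the largest rise and 2 with the largest fall per list, and the 3 genes most like each member. The lists were other Sox genes, endothelial genes of the SOXF programme, cartilage genes, SOXC targets and growth-state genes picked as falling after birth. Alternatives were DESeq2 1.42.0, its size factors, no filter, at least 50 cells, a replicate block, a title prefix term, all libraries kept and leaving out each library, and, added after seeing the data, the gene lists without P0 replicate 1. Same-numbered libraries share only a number. No column of the authors' own comparisons was used.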

Additional observations from a re-analysis of the deposited data

Results flagged for a closer look

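One library was flagged as lying far from the others of its group. In CD31+ cells at 4 weeks, replicate 1 held Sox13 at 79.5 CPM, while the other 5 libraries lay between 12.2 and 23.6 CPM. In all, 41 groups with a mean above 10 CPM were examined in this way, and chance flags about 1 in 20 groups. A library that was not flagged also stood apart. Sox9 in mTEC at 4 weeks was at 44.6 CPM in replicate 3, the shallowest library kept (5785352 counts), and between 269 and 428 in the others. It entered the mTEC tests.

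The change from P0 to 4 weeks differed between the 6 sorted populations for 5 members in the test of the interaction itself (edgeR, Benjamini-Hochberg adjustment), with adjusted p of 0.00777 for Sox4, 0.00603 for Sox5, 0.0112 for Sox6, 0.00909 for Sox17 and 0.00626 for Sox18. Sox4 fell in cTEC (log2 -0.85) and had a log2 value of 0.28 in mTEC. Sox5 rose in gp38+CD26+ cells, from 0 in every P0 library. Sox6 had log2 values of 1.25 in Ly51+gp38- cells and -1.62 in cTEC, neither of them called within its population. Both gp38+ populations, which also enter this test, were at 0 for Sox6 in every P0 library. At 4 weeks only some of their libraries held Sox6, at up to 7.29 CPM. For Sox17 and Sox18 most populations other than CD31+ were at or near 0 at P0, so the interaction compares low counts with the level of CD31+ cells.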

How the results depend on the processing

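For member tests called with a fold change, none of 1415 alternative values changed sign and 1284 were still called. Of 480 values of 47 tests that were not called (genotype in classes and age in CD31+ cells), 25 changed sign and none gained a call. Over all member tests, any difference among ages and subtypes between genotypes included, alternatives called 56 tests that had not been called, in 94 values, of which 12 had not passed the filter before. Member calls between W4 and P0 numbered 74 in subtypes and 30 in classes, 56 and 25 with DESeq2, and 51 to 71 and 25 to 32 with 1 library left out. For any age difference, leaving out 1 library gave 41 to 45 in classes. The count of members called in bulk moved with DESeq2 to 1 in Ly51+gp38- cells over age (from 0), to 2 in cTEC over age (from 1) and to 2 between gp38+CD26+ and gp38+CD26- cells at P0 and at W4 (from 1 each). Without a filter on low counts it was 3 in cTEC over age (from 1), 4 between cTEC and mTEC at P0 (from 1) and 2 at W4 (from 1). With the shallow library kept, 1 member in place of 2 was called in gp38+CD26+ cells over age. Genotype gave 0 calls in classes under each library left out and 0 to 1 in subtypes, the 1 being Sox5 in Pr without Tbx1+/-Crkl+/- replicate 2.

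With the replicate number as a block, 70 subtype and 30 class tests were called between W4 and P0, 102 and 42 among ages, and 0 and 0 between genotypes. The pairing rests on a number alone, since same-numbered newborn libraries correlated at 0.196, 0.0412 and -0.478 in their deviations in all fibroblasts. Libraries of unlike number reached 0.577 (Tbx1+/-Crkl+/- replicate 2 with WT replicate 3) and 0.453 (replicate 3 with WT replicate 1). The lowest was -0.573 (replicate 2 with WT replicate 1). Whether such libraries share a batch or litter is not given, and it was not tested. Bulk replicates were numbered in accession order, so no block was used there. Another scaling moved the median of all genes by at most 0.07 (log2). Low counts limit Sox11 and Sox12 in bulk, and few cells limit the NC subtype, which held 7 cells in each W4 library.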
